A study of Homo sapiens with 17 samples.

Results

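CHP-134 cells, an established human neuroblastoma line with an amplified MYCN oncogene, were compared after 3 days in culture with 2 µM all-trans retinoic acid (ATRA) and after DMSO alone, the solvent of the drug. The members of this comparison are 4 of the 17 libraries of the series, chosen by their labels: ATRA 3 days (2 libraries) and DMSO (2 libraries, numbered 0 days in their titles). All 4 come from 1 cell line, and both conditions carry the same cells, so the comparison shows what 1 line did. How long the DMSO cells were cultured is not given in the sources used here, and no DMSO library is labelled 3 days. Time in culture and ATRA therefore cannot be told apart in any contrast with DMSO. The series also holds cells given 2 µM ATRA for 1 day (2 libraries) and 6 days (2 libraries), and tumors that CHP-134 cells formed in mice: 4 from mice given 13-cis-retinoic acid at 25 mg/kg in 2 doses per day (RA tumors) and 5 from mice not given it (control tumors). The labels call these 5 untreated, and the paper describes its control xenografts as vehicle-treated. The study asked why a few neuroblastoma lines respond strongly to retinoic acid, and its text places cell death of this line within the first days of treatment. No genetic change or other agent was stated for the culture groups. Tumors grew from cells that carried a luciferase label, in athymic nude mice. The paper calls the 2 culture replicates independent without saying at which step they were split, and p-values here measure the spread between these libraries, which may be technical.

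Retinoic acid is made from vitamin A and enters the nucleus, where it binds retinoic acid receptors (RARA, RARB, RARG) that sit on DNA paired with retinoid X receptors. The pair recognises 2 short copies of a hexamer, in many target genes spaced by 5 bases, and the bound ligand turns the pair from a repressor into an activator. Targets include genes that bind, store and break down retinoic acid itself, and in neuroblastoma the drug is known for stopping growth and for driving cells towards a neuron-like state.

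The promoter of RARB, which encodes one of these receptors and is the textbook direct target of the pathway, is shown because it holds such a repeat. The sequence is from RefSeq, covers the 250 bases before the start of transcription and lies at chr3:25428013-25428262 on the plus strand of GRCh38.p14. Capitals mark the 2 hexamers GGTTCA and AGTTCA with the 5 bases between them, 53 to 37 bases before the start.
RARB promoter: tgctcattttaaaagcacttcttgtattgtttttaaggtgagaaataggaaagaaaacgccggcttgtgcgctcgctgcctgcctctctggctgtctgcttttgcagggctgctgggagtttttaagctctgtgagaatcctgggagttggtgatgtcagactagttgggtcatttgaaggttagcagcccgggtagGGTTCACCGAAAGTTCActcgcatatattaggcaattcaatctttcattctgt
RefSeq lists 4 RARB promoters, of which 1 holds the repeat. Hexamers searched were the form AGGTCA, the variant form AGTTCA, another variant form GGGTCA and the last variant form GGTTCA. Repeats of any pair of them, spaced by 5 bases and searched on both strands of the same window, were found in 26 of 35116 promoters of the table (0.074%). They were in 6 of the 11734 tested genes with a matched promoter (0.0511%), in 1 of the 571 matched genes that rose at 3 days and in 0 of the 302 that fell. The form spaced by 2 bases was in 11 of 35116 promoters and in none of the 571 or the 302. A match describes these letters only, and no match says only that they are not in this window.

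RARB had 15.1 and 15.8 CPM (counts scaled to the total of the library, with TMM between libraries) in cells given ATRA for 3 days, against 0.923 and 0.704 CPM in DMSO cells. The levels do not overlap, and those of each group lie close together. The difference was 18.7-fold, a log2 fold change of 4.23 ± 0.13 (SE) with a false discovery rate (FDR) of 5.82e-26 by edgeR's quasi-likelihood test with Benjamini-Hochberg adjustment, the test behind every call here. A gene is said to rise or fall only where its FDR is under 0.05 and the difference is more than 2-fold.

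Of 20237 genes tested, 1593 were called between ATRA 3 days and DMSO (7.87%). Among them 1102 rose (5.45% of those tested) and 491 fell (2.43%). Large rises were more frequent than large falls. Of the genes that rose, 461 did so by more than 4-fold and 142 by more than 16-fold, whereas 102 of those that fell did so by more than 4-fold and 9 by more than 16-fold. In the 4 fits that each left out 1 of these 4 libraries, 688 of the genes that rose and 312 of those that fell were called every time. Many called genes were weakly expressed: 476 of the genes that rose and 142 of those that fell were under 1 CPM in both groups, and 67 of the genes that rose had no count in DMSO cells. Long noncoding RNAs were 303 of the 1102 and 57 of the 491, out of 3569 tested, and protein-coding genes were 667 and 404, out of 14126 tested. Over all genes tested the median log2 fold change was 0.01.

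**Figure D1:**
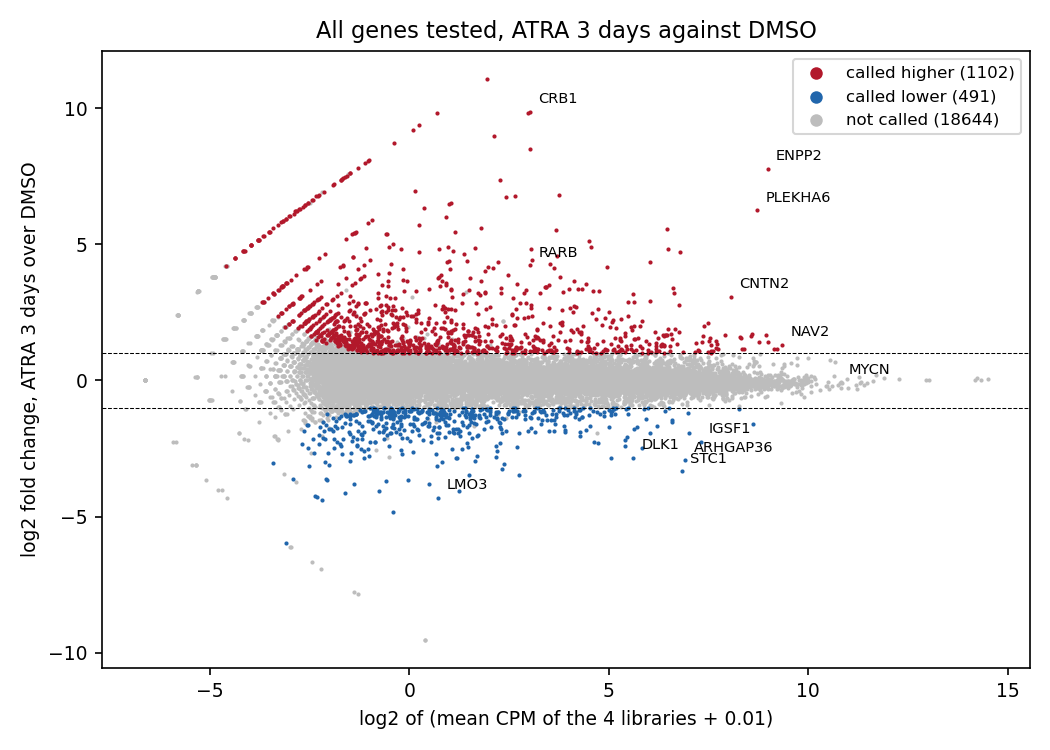
Log2 fold change of each tested gene between ATRA 3 days and DMSO (vertical axis) against its mean level on a log2 CPM scale (horizontal axis), with called genes in color. The 1102 genes that rose reach further from 0 than the 491 that fell.

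The 4 libraries held 31607051 and 33648413 counts (ATRA 3 days) and 39422897 and 34450006 counts (DMSO), and the spread between culture replicates was small (biological coefficient of variation 2.65%). No library stood apart from its replicate. The first principal component over the 8 culture libraries held 74.6% of the variance and the second 10.2%. On the first, the ATRA 3 days libraries (-4.6 and -4.2) lay between the DMSO libraries (-66.9 and -68.0) and the ATRA 6 days libraries (both 118.3). On the second, the ATRA 3 days libraries (-38.5 and -37.3) lay opposite the DMSO libraries (32.5 and 34.5). The cells expressed most of the genes used as markers of neuroblastoma identity. Summed over 12 neuroblastoma identity markers, which include MYCN and ELAVL4, levels were 3634 and 3668 CPM after ATRA against 3933 and 3958 CPM in DMSO. MYCN made up much of each sum, so the sums say little about the other markers. Of the 12, 1 rose and 2 fell (25% called, against 7.87% over all genes), and 2 were under 1 CPM. MYCN itself had 1757 and 1760.5 CPM after ATRA, against 1833.5 and 1856 CPM in DMSO, and was not called (log2 fold change -0.07 ± 0.02). Most markers of other cells were low. Leukocyte markers summed to 0.861 and 0.746 CPM after ATRA against 0.667 and 0.850 CPM in DMSO with CD3E, CD3D, MS4A1 and ITGAM at 0, and the Schwann cell factor SOX10 was at 0. Fibroblast markers, led by THY1, PDGFRB and COL1A1, were not low and summed to 108.6 and 107.6 CPM after ATRA against 138.0 and 143.2 CPM in DMSO with PDPN at 0. Endothelial markers summed to 51.7 and 47.1 CPM after ATRA against 8.87 and 10.4 CPM in DMSO, but 8 of the 10 were under 1 CPM, EMCN was at 0, and 1 gene, CLDN5, carried the difference. In bulk RNA, fewer cells of a type and less RNA per cell cannot be told apart, which holds for each result below.

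Genes that bind, make or break down retinoic acid were among those that rose. Of 19 tested genes of retinoid uptake, binding and metabolism, 8 rose and 1 fell, with a median log2 fold change of 0.55. CYP26B1, an enzyme that oxidises retinoic acid for removal, had 8.26 and 7.79 CPM after ATRA, against 0.615 and 0.264 CPM in DMSO (17.6-fold, log2 4.14 ± 0.17, FDR 2.45e-21). CRABP2, which carries retinoic acid to its receptor in the nucleus, had 31.2 and 29.9 CPM after ATRA, against 9.23 and 8.71 CPM in DMSO (3.40-fold, FDR 2.97e-24). Enzymes that handle retinal rose too, at low levels. ALDH1A2, which makes retinoic acid from retinal, had 0.893 and 1.16 CPM after ATRA, against 0.256 and 0.117 CPM in DMSO (5.32-fold, FDR 1.43e-06). DHRS3, which turns retinal back into retinol, had 61 counts over both libraries after ATRA and 1 count in DMSO, a ratio of 68.7 with a 95% counting interval of 11.9 to 2758. The 1 member that fell, ALDH1A3, stayed under 1 CPM throughout and overlaps another annotated gene.

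Of 20 tested receptors and co-regulators, 3 rose and 0 fell. Besides RARB these were RARA, which had 238.1 and 233.7 CPM after ATRA against 88.3 and 89.1 CPM in DMSO (2.66-fold, log2 1.41 ± 0.03), and RXRG, a partner of the receptors, which had 7.24 and 7.31 CPM after ATRA against 1.72 and 1.82 CPM in DMSO (4.11-fold, log2 2.04 ± 0.12). RARG, the remaining retinoic acid receptor, had 22.5 and 23.5 CPM after ATRA, against 13.7 and 14.1 CPM in DMSO, a difference of 0.73 on the log2 scale that stayed under the 2-fold limit. RARB and CRABP2 were already called at 1 day (3.23 and 1.22), whereas RXRG (0.85) and ALDH1A2 (0.79) were not, and both were higher at 3 days than at 1 day by the test of those 2 times (1.19 and 1.62).

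**Figure D2:**
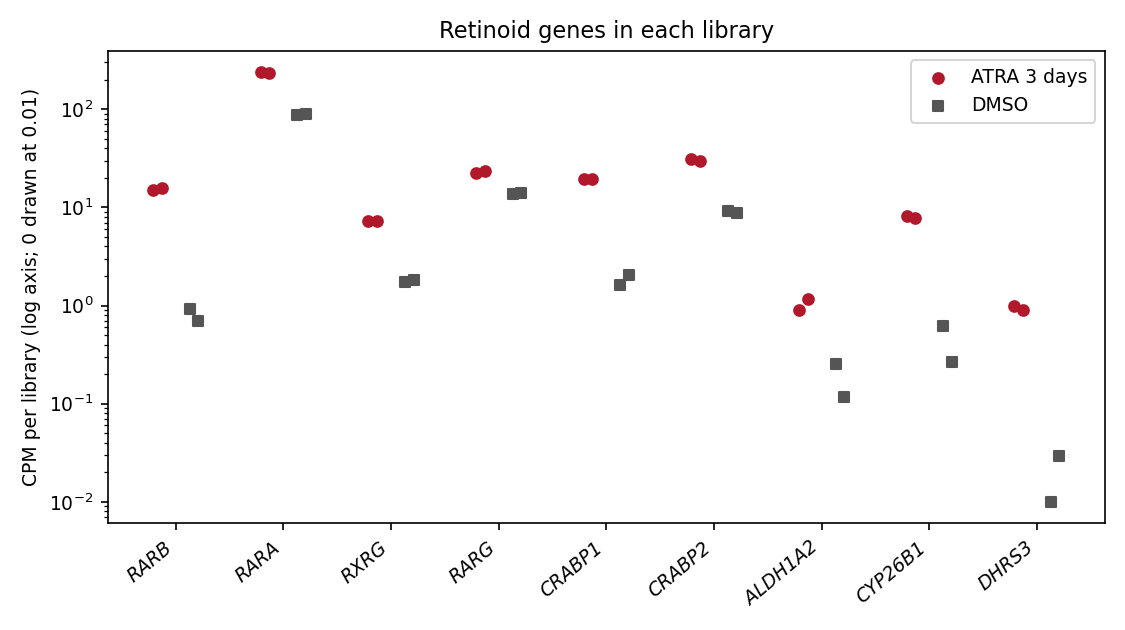
Levels of 9 retinoid genes in the ATRA 3 days libraries (red circles) and the DMSO libraries (grey squares) on a log CPM axis, with 1 point per library and a level of 0 drawn at 0.01. RARB lies at 15.1 and 15.8 CPM after 3 days of ATRA, against 0.923 and 0.704 CPM in DMSO.

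Several of the largest rises were in genes with few or no counts in DMSO. LINC01587, a long noncoding RNA at hg38 chromosome 4, 5524569 to 5527801, had 7.17 and 8.23 CPM after ATRA and no count in either DMSO library. Against a floor of 3 counts over the DMSO group its 501 counts put it at least 187.7-fold higher. CRB1, a polarity protein of epithelia and photoreceptors, had 1049 counts after ATRA and 1 in DMSO, a ratio of 1182 with a 95% counting interval of 212 to 46718. ANGPT1, a secreted ligand of the endothelial receptor TEK, had 1047 counts against 3, a ratio of 393 (134.2 to 1909). ENPP2, the secreted enzyme autotaxin that makes lysophosphatidic acid, had more counts in DMSO than these, with 999.4 and 1013.7 CPM after ATRA, against 4.36 and 4.87 CPM in DMSO (219-fold).

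Other genes of large rise are given one by one. PLEKHA6, a protein of cell junctions, had 826.7 and 832.0 CPM after ATRA, against 10.6 and 11.1 CPM in DMSO (76.7-fold, log2 6.26 ± 0.03). PALMD, a membrane-linked protein of cell shape, had 27.4 and 26.2 CPM after ATRA, against 0.308 and 0.147 CPM in DMSO (114-fold, log2 6.83 ± 0.15). CDH23, a cadherin best known from the hair cells of the ear, had 43.4 and 44.1 CPM after ATRA, against 1.18 and 1.35 CPM in DMSO (34.7-fold, log2 5.12 ± 0.08). Replicates of these genes differ by little beside the distance between the groups. SPP1, the matrix protein osteopontin, had 11.9 and 12.9 CPM after ATRA, against 0.0513 and 0.176 CPM in DMSO (110-fold, log2 6.78 ± 0.20). CCBE1, a secreted protein needed for growth of lymph vessels, had 24.5 and 25.4 CPM after ATRA, against 0.667 and 0.381 CPM in DMSO (46.4-fold, log2 5.54 ± 0.13). CYP1A1, a drug-metabolising cytochrome and the usual readout of the aryl hydrocarbon receptor, had 9.95 and 11.4 CPM after ATRA, against 0.103 and 0.088 CPM in DMSO (107-fold, log2 6.75 ± 0.23). It was 3.81 higher on the log2 scale at 3 days than at 1 day. PRG2, RFPL1 and TMC3 met the same rule, but each overlaps another annotated gene, and reads of the pair cannot be assigned with certainty.

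CLDN5, the tight-junction claudin of endothelium, had 47.7 and 42.4 CPM after ATRA, against 1.31 and 1.73 CPM in DMSO (29.8-fold, FDR 4.64e-19). Other markers of endothelium did not share this level: EMCN had no count, the secreted marker EGFL7 fell (-1.14), and the factor ERG had 0.351 and 0.268 CPM after ATRA against 0.0513 and 0.0586 CPM in DMSO.

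The genes with the largest falls were fewer and moved less. ARHGAP36, an activator of the Hedgehog factors that blocks protein kinase A, had 29.0 and 27.0 CPM after ATRA, against 215.2 and 213.1 CPM in DMSO (7.65-fold lower, log2 -2.94 ± 0.04). C1QL1, a secreted ligand of synapses, had 7.84 and 8.17 CPM after ATRA, against 58.3 and 58.5 CPM in DMSO (7.29-fold lower, log2 -2.86 ± 0.06). These levels do not overlap between groups, and replicates of DMSO differ by little. ADAMTS5, a protease of cartilage matrix, had 17.4 CPM in both libraries after ATRA, against 96.7 and 96.3 CPM in DMSO (5.54-fold lower, log2 -2.47 ± 0.05). ZFPM2, a partner of GATA factors, had 1.28 and 0.925 CPM after ATRA, against 9.10 and 9.50 CPM in DMSO (log2 -3.08 ± 0.16). CD9, a tetraspanin of the cell surface, had 1.498 and 1.07 CPM after ATRA, against 8.49 and 7.12 CPM in DMSO (log2 -2.61 ± 0.17). CBFA2T3, a co-repressor of blood and neural progenitors, had 1.53 and 1.31 CPM after ATRA, against 7.67 and 7.59 CPM in DMSO (log2 -2.42 ± 0.16). ARHGAP36 was not called at 1 day (-0.61) and was lower at 3 days than at 1 day by -2.32.

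Signaling genes were described by pathway. Counts of called members, here and in the lists below, are to be read beside the 7.87% called over all genes tested. Of 27 tested Notch receptors, ligands and targets, 0 rose and 7 fell, with a median of -0.50. The receptor NOTCH1 had 1.24 and 1.01 CPM after ATRA, against 7.28 and 8.39 CPM in DMSO (log2 -2.79 ± 0.18). The membrane ligand DLK1, which lacks the domain that activates the receptor, had 11.8 and 11.96 CPM after ATRA, against 86.1 and 84.4 CPM in DMSO (log2 -2.84 ± 0.05). The ligand JAG2 had 16.4 and 16.05 CPM after ATRA, against 35.8 and 36.2 CPM in DMSO (log2 -1.15 ± 0.06). MFNG, an enzyme that adds sugars to the receptor, fell too (-2.51), and so did HES6, a factor of the target family (-1.17). The count of 0 rises became 1 without ATRA 3 days replicate 2 and without DMSO replicate 2.

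Of 19 tested genes for neurotrophin and GDNF signaling 7 rose and 0 fell, with a median of 0.33. NGFR, the low-affinity neurotrophin receptor, had 8.61 and 9.01 CPM after ATRA, against 1.03 and 0.850 CPM in DMSO (9.31-fold). CNTFR, a receptor subunit for ciliary neurotrophic factor, averaged 104 CPM after ATRA and 49.9 CPM in DMSO (log2 1.06 ± 0.03). SORCS3, a sorting receptor of the same family of binding partners, rose by 2.44 at low level. The receptor tyrosine kinase genes RET and NTRK2 rose by 1.90 and 1.48.

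Of 34 FGF ligands, receptors and MAPK feedback genes, 6 rose and 1 fell. ETV1, an ETS factor that responds to MAPK signals, had 49.8 and 47.8 CPM after ATRA, against 5.00 and 5.01 CPM in DMSO (9.74-fold). DUSP9, a phosphatase that switches MAP kinases off, had 6.95 and 6.44 CPM after ATRA, against 0.744 and 0.645 CPM in DMSO (9.56-fold). Phosphatases of the same kind, DUSP16 (1.57) and DUSP6 (1.45), rose as well.

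Wnt genes split, with 7 of 47 rising and 8 falling around a median of -0.04. WNT11, a ligand of the branch that does not use beta-catenin, had 3.99 and 4.68 CPM after ATRA, against 0.128 and 0.0586 CPM in DMSO (43.8-fold). The secreted inhibitor DKK2 rose by 3.34 on the log2 scale. Its relative DKK1, which overlaps another annotated gene, had 0.478 and 0.626 CPM after ATRA, against 3.87 and 4.13 CPM in DMSO (-2.84), so it fell. The beta-catenin target SP5 fell by 1.91, and the ligand WNT5B fell by 2.11. The Hedgehog list held 1 gene of 21 that rose and 4 that fell. GLI3, which encodes a factor that in its processed form represses Hedgehog targets, had 294.2 and 288.9 CPM after ATRA, against 66.8 and 67.2 CPM in DMSO (4.35-fold). The genes that fell include ARHGAP36 and the co-receptors CDON (-1.25) and GAS1 (-1.12).

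Of 25 genes of the TGF-beta and activin pathway 3 rose and 2 fell. The ligand TGFB2 had 630.7 and 632.8 CPM after ATRA, against 240.6 and 236.6 CPM in DMSO (2.65-fold), while the signal carrier SMAD3 fell (-1.42). In the BMP list 4 of 29 rose and 4 fell, around a median of 0.05. SMAD1, a carrier of the BMP signal, rose (1.27), whereas the ligand BMP7 fell (-1.12), and among the secreted antagonists CHRDL1 (-1.32) and GREM1 (-1.78) fell. ID1, a usual target of BMP signals, had 60.4 and 55.2 CPM after ATRA, against 102.2 and 103.3 CPM in DMSO (-0.83), and its relatives ID2 (-0.89), ID3 (0.12) and ID4 (0.04) were likewise within the 2-fold limit.

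Of 17 tested regulators of G protein signaling 2 rose, both by a wide margin, and 0 fell (11.8% called, against 7.87% over all genes). RGS16 had 172.6 and 170.2 CPM after ATRA, against 3.54 and 3.69 CPM in DMSO (47.4-fold, log2 5.57 ± 0.05). RGS8 had 172 and 174 CPM after ATRA, against 5.90 and 6.39 CPM in DMSO (28.2-fold, log2 4.82 ± 0.04). Both speed up the hydrolysis of GTP by G protein alpha subunits. ACKR3, a scavenging receptor for the chemokine CXCL12, rose to 6.76 and 6.77 CPM after ATRA, against 0.180 and 0.088 CPM in DMSO (48.2-fold). Its ligand CXCL12 (-1.53) and the signaling receptor CXCR4 (-3.69) fell. CXCR4 was low in both groups, with 0.0956 and 0.0895 CPM after ATRA, against 1.49 and 0.968 CPM in DMSO. At 6 days CXCR4 was not called against DMSO (-0.97).

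**Figure D3:**
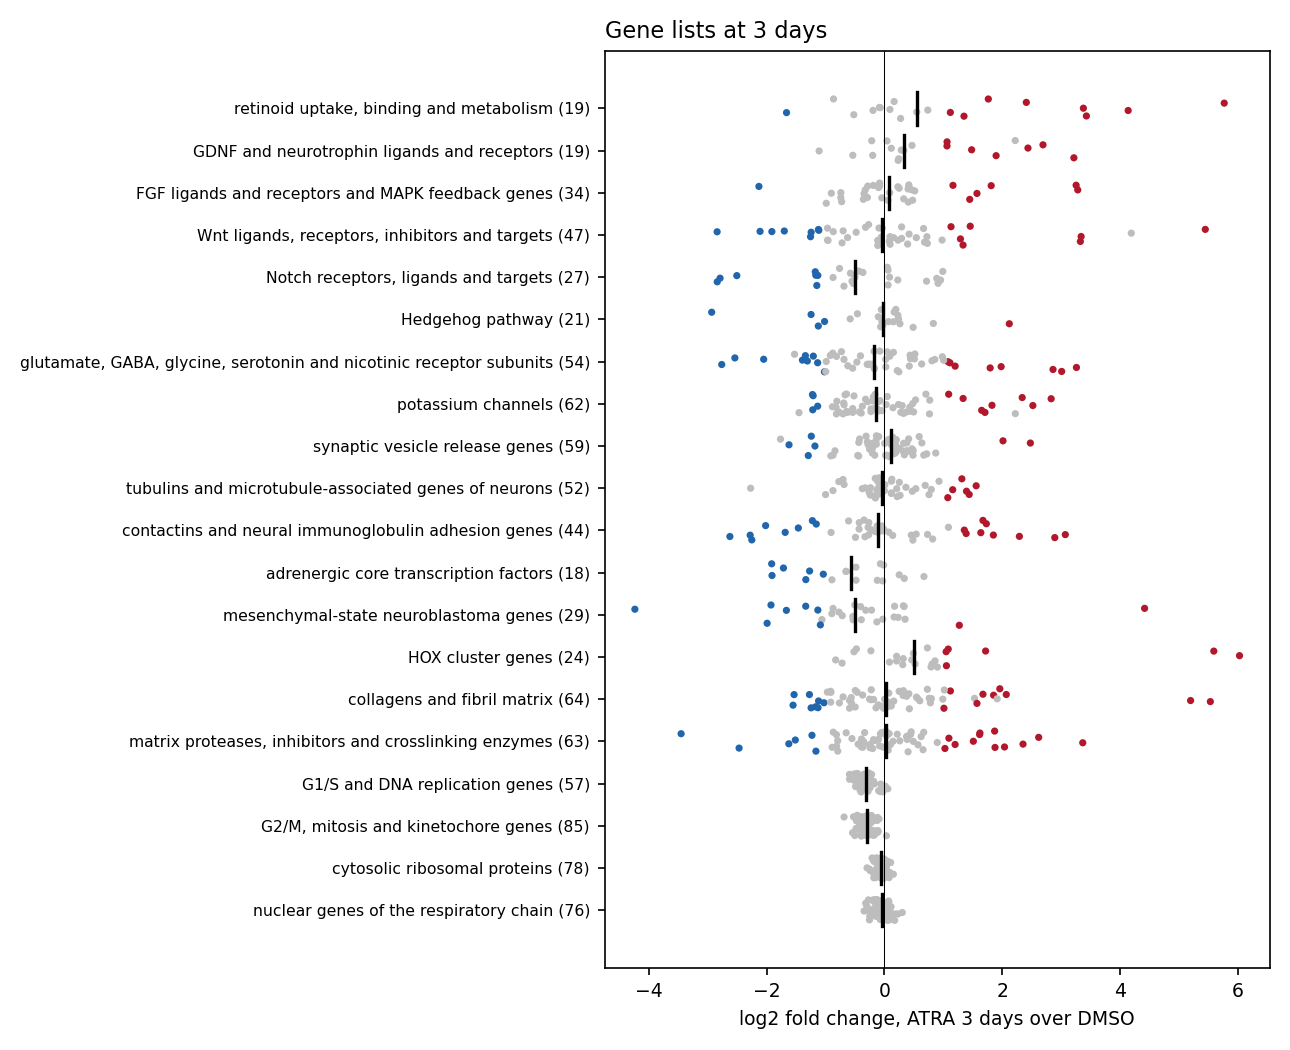
Log2 fold change between ATRA 3 days and DMSO (horizontal axis) of each tested member of 20 gene lists (rows, number tested in brackets), red where the gene rose, blue where it fell, grey where not called, with a bar at the list median. The Notch row holds 7 blue points and no red one, and the rows for DNA replication and mitosis lie close to 0 and hold grey points only.

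Genes of neurons changed in a mixed fashion. Of 54 tested transmitter receptor subunits 8 rose and 9 fell. GLRA1, a glycine receptor subunit, had 26.7 and 25.4 CPM after ATRA, against 2.46 and 2.99 CPM in DMSO (9.60-fold, log2 3.26 ± 0.09). GABBR2, a subunit of the metabotropic GABA receptor, had 85.9 and 88.7 CPM after ATRA, against 12.3 and 11.7 CPM in DMSO (7.28-fold, log2 2.86 ± 0.05). HTR3A, the serotonin receptor that is an ion channel, had 7.62 and 7.43 CPM after ATRA, against 30.3 and 32.2 CPM in DMSO (4.15-fold lower, log2 -2.05 ± 0.07). The muscarinic receptor CHRM2 fell (-2.54) at levels under 2 CPM. SCN9A, the sodium channel of pain fibres and sympathetic neurons, fell to 0.478 and 0.626 CPM after ATRA, against 2.26 and 2.37 CPM in DMSO (log2 -2.05 ± 0.26). Of 62 tested potassium channels 8 rose and 4 fell.

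Synapse and secretion genes showed no single direction either. In the list of postsynaptic scaffolds and synaptic adhesion 6 of 57 rose and 8 fell. The scaffold DLG2 had 35.0 and 33.4 CPM after ATRA, against 3.31 and 3.43 CPM in DMSO (10.2-fold), and the kinase CAMK2A had 1.59 and 1.76 CPM after ATRA, against 0.180 and 0 CPM in DMSO. In the vesicle release list 2 of 59 rose and 4 fell (10.2% called, against 7.87% over all genes). Those that fell include SV2B (-1.62), SV2C (-1.18) and the calcium sensor SYT6 (-1.24). Granins went apart: SCG2, a granin of dense-core vesicles, had 369.0 and 368.1 CPM after ATRA, against 117.4 and 111.2 CPM in DMSO (3.22-fold), whereas VGF, a neuropeptide precursor, had 15.5 and 15.1 CPM after ATRA, against 70.7 and 69.6 CPM in DMSO (4.59-fold lower). VGF was not called at 1 day (0.88) and was -3.08 lower at 3 days than at 1 day.

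The catecholamine list, the pathway of sympathetic neurons and adrenal medulla, held 5 genes of 21 that rose and 1 that fell. The gene that fell, the noradrenaline transporter SLC6A2, overlaps another annotated gene. It had 0.478 and 0.597 CPM after ATRA, against 2.97 and 4.87 CPM in DMSO (log2 -2.85 ± 0.26). PNMT, which turns noradrenaline into adrenaline, had 9.72 and 10.1 CPM after ATRA, against 2.49 and 2.40 CPM in DMSO (4.05-fold). TH, the first enzyme of the pathway, had 0.956 and 0.746 CPM after ATRA, against 0.231 and 0.264 CPM in DMSO (3.41-fold), so it rose while staying under 1 CPM. MAOA, which breaks the amines down, had 13.3 and 12.4 CPM after ATRA, against 5.72 CPM in both DMSO libraries (log2 1.17).

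Of 52 tested microtubule genes of neurons 6 rose and 0 fell (11.5% called, against 7.87% over all genes). NAV2, a microtubule tip protein that responds to retinoic acid in neurons, had 922 and 946 CPM after ATRA, against 375 and 376 CPM in DMSO (2.49-fold). CRMP1, which acts in growth cones, had 822 and 820 CPM after ATRA, against 366 and 369 CPM in DMSO (log2 1.16). NAV1 (1.39), MAP6 (1.08), STMN4 (1.44) and TPPP3 (1.56) made up the rest, and the list median was -0.04, and the other 46 members were not called. Of 27 tested kinesins 0 rose and 1 fell, KIF21B, a motor of neurites, with 16.4 and 17.0 CPM after ATRA, against 69.8 and 72.2 CPM in DMSO (4.25-fold lower).

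Adhesion genes changed in both directions. CNTN2, a contactin of growing axons, had 480.3 and 478.0 CPM after ATRA, against 57.1 and 56.8 CPM in DMSO (8.42-fold). IGSF1, a membrane protein of the pituitary, had 54.8 and 54.9 CPM after ATRA, against 260.0 and 263.1 CPM in DMSO (4.77-fold lower). Across the contactin and immunoglobulin list 9 of 44 rose and 8 fell. Among 35 cadherins 9 rose and 5 fell. CDH15, the cadherin of muscle cells, fell to 0.255 and 0.268 CPM after ATRA, against 4.74 and 4.16 CPM in DMSO (16.8-fold lower).

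Transcription factors of sympathetic neuroblasts were lower or not called. Of 18 adrenergic core factors, the set that maintains neuroblastoma identity, 0 rose and 6 fell, with a median of -0.57. GATA2 had 13.4 and 13.2 CPM after ATRA, against 31.95 and 32.1 CPM in DMSO (-1.27). ISL1 (-1.72) fell as well, and so did INSM2 (-1.91) and SIX3 (-1.92) at low levels. Genes of the mesenchymal state, the other state described in neuroblastoma, held 2 that rose and 7 that fell of 29. Among them PRRX1 (-1.93), CD44 (-1.67) and CCN1 (-1.34) fell.

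Other factors rose strongly. POU3F1, a POU factor of neural progenitors and Schwann cells, had 177.6 and 179.5 CPM after ATRA, against 19.98 and 18.7 CPM in DMSO (9.22-fold, log2 3.21 ± 0.04). SOX9, a factor of neural crest and cartilage, had 32.7 and 32.2 CPM after ATRA, against 2.56 and 2.58 CPM in DMSO (12.6-fold, log2 3.66 ± 0.09). BHLHE40, a repressor tied to the circadian clock and to hypoxia, had 30.3 and 27.8 CPM after ATRA, against 5.13 and 4.98 CPM in DMSO (5.73-fold, log2 2.52 ± 0.08). Each of these was called at 1 day too (1.69, 2.74 and 1.33). Factors that fell include LMO3, an oncogenic partner of neural bHLH factors in neuroblastoma, with 0.191 and 0.119 CPM after ATRA, against 3.08 and 3.14 CPM in DMSO (19.7-fold lower, log2 -4.30 ± 0.33), and the orphan receptor ESRRG, with 35.0 and 36.3 CPM after ATRA, against 114 and 112 CPM in DMSO (3.16-fold lower, log2 -1.66 ± 0.04). Of 24 tested HOX genes 6 rose and 0 fell, with a median of 0.51. HOXB3 had 15 counts after ATRA and none in DMSO, at least 5.53-fold higher.

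Matrix genes moved in both directions. Of 64 collagens and fibril genes 9 rose and 8 fell, and of 63 matrix proteases, inhibitors and crosslinking enzymes 12 rose and 6 fell. LOXL4, which crosslinks collagen, had 28.7 and 29.3 CPM after ATRA, against 2.87 and 2.73 CPM in DMSO (10.3-fold). MMP14, a membrane-bound collagenase, had 10.2 and 9.90 CPM after ATRA, against 2.69 and 2.17 CPM in DMSO (4.11-fold). COL25A1, a collagen of neurons, had 52.0 and 52.7 CPM after ATRA, against 13.6 and 13.3 CPM in DMSO (3.89-fold). Fibril collagens split. COL1A1 had 7.30 and 6.86 CPM after ATRA, against 16.9 and 16.7 CPM in DMSO, and fell (-1.25). COL3A1 had 4.56 and 4.21 CPM after ATRA, against 10.4 and 10.8 CPM in DMSO, and fell as well (-1.27). COL5A1 had 134.3 and 132.3 CPM after ATRA, against 41.5 and 42.0 CPM in DMSO, and rose (1.67).

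Genes of cell division were not called at 3 days, in either direction. Of 57 tested genes of G1/S and DNA replication 0 rose and 0 fell, with a median of -0.31 and negative values in 55, and of 85 genes of G2/M and mitosis 0 rose and 0 fell, with a median of -0.30 and negative values in 84. MKI67, a protein of dividing cells, had 371 and 375 CPM after ATRA, against 460 and 448 CPM in DMSO (-0.29). By the test of 6 days against 3 days, 56 of the 57 and 84 of the 85 were called lower, with medians of -1.98 and -2.11. Homologous recombination genes (median -0.21 over 44) and nucleolar and polyamine genes that MYC proteins activate (-0.27 over 45) also had no called gene at 3 days. The D cyclin CCND1 had 703 and 713 CPM after ATRA, against 574 and 577 CPM in DMSO (0.30), and the CDK inhibitor CDKN1A had 120 and 124 CPM after ATRA, against 88.6 and 86.9 CPM in DMSO (0.47). Neither passed the 2-fold limit. Among 41 CDK inhibitors, D cyclins and RB regulators 3 rose, and among them TOB1, a brake on cell growth, had 66.2 and 65.4 CPM after ATRA, against 13.9 and 13.7 CPM in DMSO (4.77-fold).

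**Figure D4:**
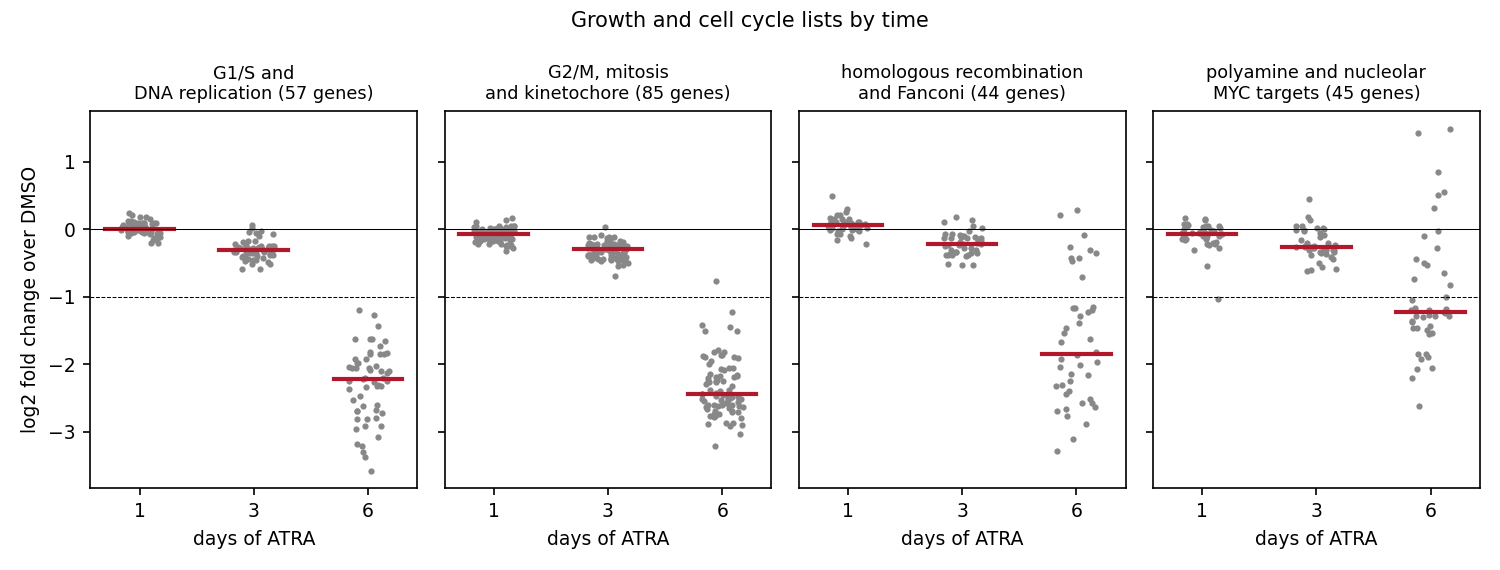
Log2 fold change against DMSO (vertical axis) for genes of DNA replication, mitosis, recombination and nucleolar MYC targets at 1, 3 and 6 days of ATRA, with 1 point per gene, a red bar at the list median and a dashed line at a 2-fold fall. The medians of the DNA replication list are 0.00 at 1 day, -0.31 at 3 days and -2.21 at 6 days.

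Lists of cell death genes were read beside the 7.87% called over all genes. Of 21 BCL2 family members 1 rose (4.76% called), BMF, which binds and blocks survival members of that family, with 19.6 CPM in both libraries after ATRA, against 3.18 and 2.99 CPM in DMSO (log2 2.66). BCL2 (-0.77) and BAX (-0.39) stayed within the 2-fold limit. Of 37 death receptors, caspases and their inhibitors 1 rose and 0 fell (2.7% called). Of 41 p53 targets 3 rose and 3 fell (14.6% called): PLK2, a kinase of the centrosome, rose (2.10) and TIGAR, a brake on glycolysis, fell (-1.72). Ribosomal proteins (78 tested), nuclear genes of the respiratory chain (76), mitochondrial transcripts (13) and ATF4 targets (48) held no called gene. The hypoxia and glycolysis list held 5 of 44 that rose and 0 that fell (11.4% called). EGLN3, an oxygen-sensing hydroxylase, had 58.5 and 55.2 CPM after ATRA, against 13.0 and 11.4 CPM in DMSO (4.64-fold), and it was 2.37 higher at 3 days than at 1 day. Of 50 fatty acid and lipid transport genes 5 rose and 2 fell, and ACSL4, which loads polyunsaturated fatty acids into membranes, had 208 and 209 CPM after ATRA against 101 and 96.7 CPM in DMSO (2.11-fold).

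Among noncoding RNAs, LINC01933 had 22.8 and 20.8 CPM after ATRA, against 1.18 and 1.06 CPM in DMSO (19.4-fold), and SSTR5-AS1, on the strand opposite the somatostatin receptor gene SSTR5, had 11.5 and 12.2 CPM after ATRA, against 0.795 and 1.26 CPM in DMSO (11.6-fold). EMX2OS rose by 3.40 on the log2 scale and overlaps another annotated gene. AC010478.1 had 5.36 and 4.41 CPM after ATRA, against 14.6 and 14.98 CPM in DMSO (-1.6), and LINC01435 fell by 1.18.

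Counts of called genes grew with time. The contrasts at 1, 3 and 6 days share the DMSO libraries, so each gives its own count and no overlap is read as support. No DMSO library is labelled with any of these days, so growth with time in culture and with ATRA cannot be told apart. At 1 day 554 genes were called against DMSO (2.74% of those tested), with 1.95% higher and 0.791% lower, and at 6 days 6304 (31.2%), with 18.8% higher and 12.3% lower. The median absolute log2 fold change over all genes was 0.15 at 1 day, 0.23 at 3 days and 0.63 at 6 days. Of the 1102 genes that rose at 3 days, 322 were called higher at 1 day and 1015 at 6 days. By direct test, 827 genes (4.09%) differed between 3 days and 1 day and 4269 (21.1%) between 6 days and 3 days. Of these, 580 genes were higher and 247 lower at 3 days than at 1 day (2.87% and 1.22% of those tested), and 2568 were higher and 1701 lower at 6 days than at 3 days (12.7% and 8.41%). Of the 1102, 455 were higher at 3 days than at 1 day and 554 were further higher at 6 days. Of the 491 that fell, 178 were lower at 3 days than at 1 day and 122 were further lower at 6 days, while 102 moved back between 3 and 6 days. Against DMSO at 6 days, 317 of the 491 were called lower, 153 were not called and 21 were called higher. For the 1102 the matching counts were 83 not called and 4 called lower at 6 days, and 43 moved back.

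A minority of genes turned. In 14 genes the level at 3 days was called higher than in DMSO, at 1 day and at 6 days, and in 36 it was called lower than all of these. The call against DMSO held without each of the 4 libraries in 12 and 27 of them. Whether their calls against 1 day and 6 days held in the same way was not tested. COL5A1, a fibril collagen, averaged 41.8 CPM in DMSO, 58.3 at 1 day, 133.3 at 3 days and 45.8 at 6 days. VEGFC, a growth factor of lymph vessels, averaged 2.46 CPM in DMSO, 4.93 at 1 day, 12.3 at 3 days and 5.13 at 6 days, and the orphan receptor NR0B1 averaged 0.715, 3.90, 10.3 and 4.48 CPM in the same order. Their log2 differences were 1.19, 1.31 and 1.41 between 3 days and 1 day, and -1.54, -1.26 and -1.21 between 6 days and 3 days. Among the troughs, DLK1 averaged 85.3 CPM in DMSO, 62.0 at 1 day, 11.9 at 3 days and 57.9 at 6 days (-2.38 ± 0.05 between 3 days and 1 day, 2.28 ± 0.05 between 6 days and 3 days). CNTN1, a contactin that was chosen after its values were seen, averaged 22.4, 19.01, 6.97 and 54.3 CPM in the same order.

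DLK1 lies in the imprinted region of hg38 chromosome 14, at 100725705 to 100738224, where it is read from the paternal copy and the noncoding RNAs MEG3 (100779410 to 100861031) and MEG8 (100894770 to 101038859) from the maternal copy. MEG3 averaged 176.9 CPM in DMSO, 123.7 at 1 day, 76.3 at 3 days and 793.7 at 6 days. It fell at 3 days (-1.21 ± 0.03) and was higher than DMSO at 6 days (2.17), with 3.38 ± 0.03 between 6 days and 3 days. MEG8 averaged 27.7, 22.9, 10.4 and 69.5 CPM in the same order and also fell at 3 days (-1.41) and was higher at 6 days. MEG9, further along (101042908 to 101072937) and chosen after its values were seen, averaged 2.32, 1.67, 1.11 and 8.28 CPM and fell at 3 days (-1.06). The neighbour BEGAIN on the other side averaged 5.44, 4.68, 4.25 and 5.87 CPM and was not called. The lowest of the 4 means was at 3 days for each of these genes.

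**Figure D5:**
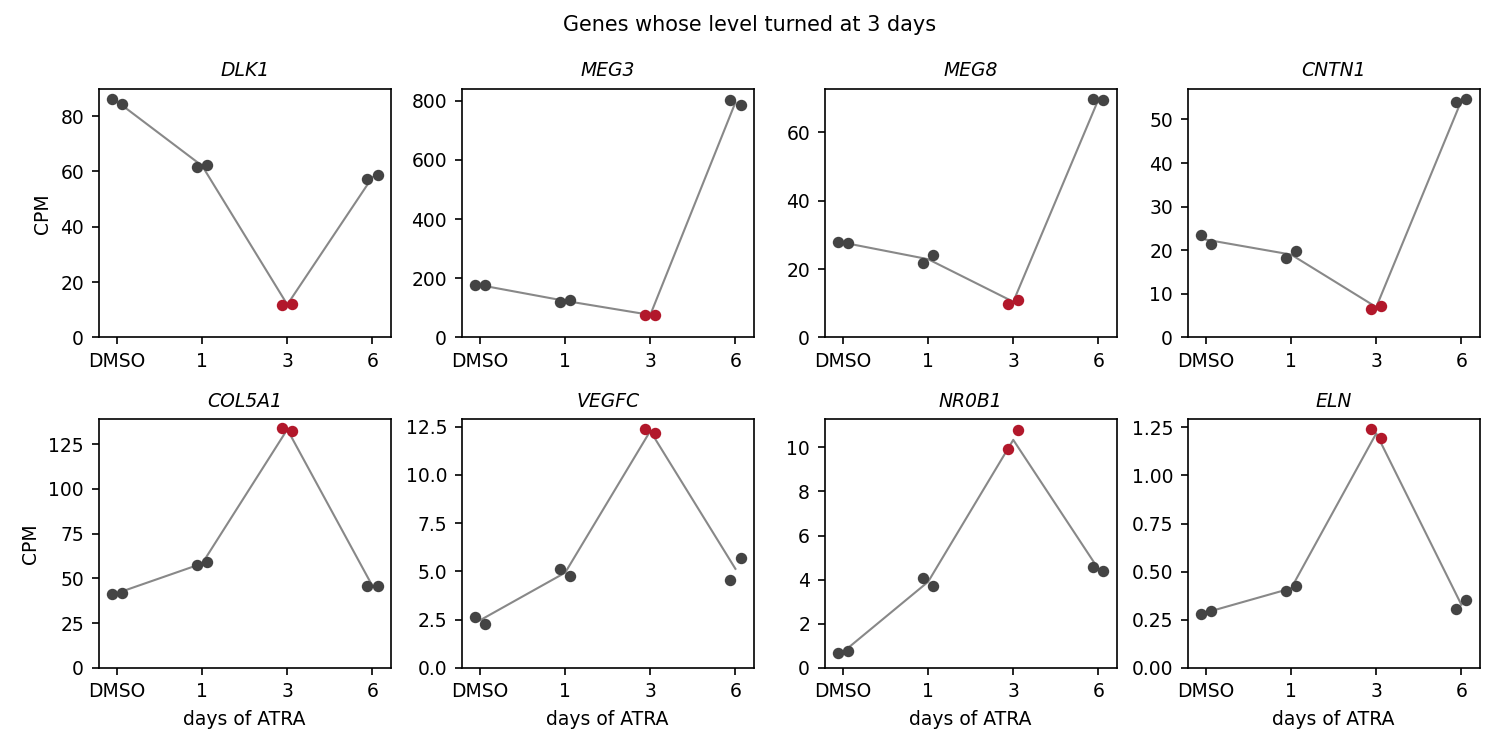
CPM (vertical axis) in DMSO and after 1, 3 and 6 days of ATRA for 8 genes whose level turned, with 1 point per library (red at 3 days) and a line through the means. DLK1 has its lowest mean at 3 days (11.9 CPM) and COL5A1 its highest (133.3 CPM).

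RA tumors give a readout of the same line that shares no library with the culture comparison, although the drug, the route, the mouse host and the library kit differ. How reads of mouse cells were handled in tumors is not given in the sources used here. In tumors 60 of 21098 genes tested were called (0.284%), 52 higher (0.246%) and 8 lower (0.0379%), with a biological coefficient of variation of 13.9%. Of the 1102 genes that rose in culture, 796 were tested in tumors and 30 of them (3.77%) were higher in RA tumors, with 0 lower and 74.6% on the positive side. Over all 17961 genes tested in both, 0.234% were higher in RA tumors and 49.3% were on the positive side. Of the 491 that fell, 430 were tested in tumors, of which 3 were lower and 2 higher, with 45.6% on the positive side and a median log2 fold change of -0.04. Over all genes tested in both, 0.0334% were lower in RA tumors. The count of 30 was 9 with the replicate number as a block, in a fit that also left out control tumor 5. It lay between 19 (without RA tumor 2) and 50 (without RA tumor 4) with 1 tumor left out.

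RARB had 8.16, 10.3, 7.25 and 8.84 CPM in RA tumors, against 4.17, 4.01, 4.10, 3.03 and 3.65 CPM in control tumors (1.19 ± 0.15, FDR 0.00194). The 2 sets of tumors do not overlap. LOXL4 had 6.79, 4.11, 3.60 and 6.02 CPM in RA tumors, against 1.72, 1.00, 1.19, 1.08 and 0.995 CPM in control tumors (2.10 ± 0.24). Every RA tumor was above every control tumor for this gene. SOX9 had 9.65, 8.77, 6.26 and 4.39 CPM in RA tumors, against 1.14, 2.50, 1.46, 2.28 and 1.33 CPM in control tumors (2.04). LINC01587, with no count in DMSO cells, had 3.93, 3.03, 1.73 and 1.12 CPM in RA tumors, against 0.114, 0.150, 0, 0.217 and 0.166 CPM in control tumors (4.16). IGSF1, which fell in culture, had 38.6, 56.4, 57.9 and 78.3 CPM in RA tumors, against 115.5, 95.8, 123.5, 130.0 and 165.5 CPM in control tumors (-1.12 ± 0.22, FDR 0.0461), again without overlap. DLK1 and ENPP2 did not pass the test in tumors (0.45 with FDR 0.0654, and 1.88 with FDR 0.0510).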

How the data were processed

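RNA of CHP-134 cells was sequenced after removal of ribosomal RNA. Per the submitters' processing notes, the authors used Trim Galore 0.4.4, STAR 2.7.10a, the hg38 build and RSEM 1.3.3, and deposited expected counts (estimated counts per gene, not normalized). The annotation release and the strand setting of counting are not given in the sources used here. Where genes overlap, their reads may therefore be counted for either.

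Expected counts were rounded to whole numbers. Genes with too few counts were removed (filterByExpr, minimum count 10), and 1 model with a mean per group was fitted to all 8 culture libraries (edgeR 4.0.16, R 4.3.3, TMM scaling, robust quasi-likelihood test, Benjamini-Hochberg adjustment over all genes tested). Tumors had their own fit. Where DMSO had no count, folds are bounds against 3 counts over the group. DESeq2 1.42.0, other scalings, no filter, a fit of only the 2 groups compared, a test against a 2-fold change, a replicate block and leaving out each library were alternatives. The edgeR test of ATRA 3 days against DMSO was checked on simulated data, and the other tests were not.

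Named genes were the 15 largest rises and falls at 5 CPM or more, up to 6 per gene list and 5 noncoding RNAs per direction. All of these were called in every fit that leaves out 1 DMSO or ATRA 3 days library. The 8 largest called differences per direction to other times were named too. They needed a call at 3 days and 5 CPM, but not the call in every such fit. Markers and the reference members of a list (such as RARG, MYCN, MKI67 or BCL2) were named whether called or not. The genes shown in tumors were chosen among these after their tumor values were seen. The comparison, lists and genes were chosen with earlier results of these data known. Some genes that met the rule are not reported here.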

Additional observations from a re-analysis of the deposited data

Results flagged for a closer look

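Of 4 RA tumors, replicate 1 lay apart for NGFR, at 16.03 CPM beside 9.40, 9.47 and 9.62 CPM in the others. Of 5 control tumors, replicate 1 lay apart for LOXL4, at 1.715 CPM beside 0.995, 1.00, 1.08 and 1.19 CPM in the others. The rule for such gaps (Dixon's) marks about 1 in 20 groups by chance.

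A further set of genes was called in opposite directions against DMSO at 3 days and at another time, with the difference between the times tested by edgeR's quasi-likelihood test. Between 6 days and 3 days the log2 difference was 3.38 for MEG3, 2.73 for MEG8, 5.83 for the mucin gene MUC19 and 3.97 for the adenylyl cyclase gene ADCY8, all of which fell at 3 days and were higher than DMSO at 6 days. Between 3 days and 1 day it was -5.76 for the heat-shock gene HSPA6 and -4.46 for the ETS factor gene ETV4, which were higher than DMSO at 1 day and fell at 3 days. ETV4 overlaps another annotated gene, and MUC19, ADCY8, HSPA6 and ETV4 stayed under 2 CPM in DMSO and at 3 days. The part of any technical difference between libraries of different days in these values was not tested.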

How the results depend on the processing

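Between ATRA 3 days and DMSO, 1102 genes rose and 491 fell. A test against a 2-fold change, which asks more than the 2-fold limit, called 508 and 173. All other alternatives stayed within 1.5 times, among them DESeq2 (793 and 387), the replicate number as a block (1087 and 477) and leaving out 1 library (1005 to 1043 and 465 to 504). The replicate numbers do not pair the culture libraries (correlations of deviations from -0.025 to 0.0115). For 3 days against 1 day (580 higher, 247 lower), DESeq2 called 359 and 152, the 2-fold test 173 and 43, and the block 572 and 240. Leaving out 1 library gave 497 to 570 and 230 to 263. For 6 days against 3 days (2568 and 1701), the 2-fold test called 1482 and 1082 and the block 2558 and 1697, and leaving out 1 library gave 2399 to 2532 and 1682 to 1714.

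Tumor counts rest on single tumors. The block fit of the tumors also left out control tumor 5, so its counts do not show the block alone. The 52 higher genes were 94 with no filter, 10 with the block and 2 with the 2-fold test, and leaving out 1 tumor gave 24 (without RA tumor 2) to 131 (without RA tumor 4), with 32, 31, 32 and 27 without control tumor 3, control tumor 5, RA tumor 1 and RA tumor 3. The 8 lower genes were 17 with DESeq2, 30 with no filter, 0 with the block and 0 with the 2-fold test, and 0 to 29 without 1 tumor, with 26 without control tumor 2, 2 without control tumor 3 or 5, 1 without RA tumor 1 or 3, 0 without RA tumor 2 and 29 without RA tumor 4. Of the genes that rose in culture, the 30 higher in RA tumors were 9 with the block, 2 with the 2-fold test and 19 to 50 without 1 tumor. The 3 that fell in both were 0 with the block, 0 with the 2-fold test and 0 to 3 without 1 tumor (0 without control tumor 3 or 5, or RA tumor 1, 2 or 3). The cause of these shifts was not tested.

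No named gene changed direction under any alternative run. Of 2864 values of named genes under the alternatives, 57 lost their call, 50 of them under the 2-fold test. Among the others were NTSR1 (0.98) without ATRA 3 days replicate 1, NTSR1 (0.71) without DMSO replicate 2, and ERG and AC006974.2, which rest on a few counts. With 2 libraries per group and 4 residual degrees of freedom, precision comes from an estimate of the spread shared by all genes, and genes with under 1 CPM carry wide counting error.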
